A study of Mus musculus with 6 samples.

Results

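The adipocyte and lipid storage genes are 40 genes that fat cells use to make, store and release triglyceride, together with genes that mark brown fat. Every probe set (a group of short probes that reads 1 transcript) whose only gene symbol in the platform annotation is on this list was taken, whatever its values. That gave 79 probe sets for 36 of the 40 genes, out of 34945 probe sets for 18193 genes in all. Expression of adipsin (Cfd), Plin1, Acsl1 and Adrb3 is not analysed here. The list was used to judge how much fat signal the dissected arteries carried and whether it was of white or brown kind.

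The arteries were mesenteric arteries, the small vessels that feed the gut and that run through visceral fat. Both groups held 3 mice of 7 weeks on a mixed background that includes FVB, SVJ129 and C57BL/6, with beta1 integrin alleles flanked by loxP sites and all had received 14 doses of 1 mg tamoxifen, begun at 5 weeks. The control mice (animals 30, 74 and 75) were negative for Cre, and the knockout mice (animals 72, 73 and 86) were positive for sm22alphaCRE, a recombinase under the promoter of a smooth muscle gene. No group carried Cre without floxed alleles, so the effect of Cre with tamoxifen and that of the deletion cannot be told apart. Per the labels, fat and lymphatic tissue had been cleaned off before RNA was extracted, and each array holds 1 mouse.

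White fat cells hold a single large lipid droplet. Fatty acids are freed from circulating lipoproteins by lipoprotein lipase, enter through CD36, are joined to glycerol by acyltransferases, and are stored under a coat of perilipins and CIDE proteins. They are released again by 3 lipases that act in series, Pnpla2, Lipe and Mgll. Brown fat cells hold many small droplets and many mitochondria, and the carrier Ucp1 lets them turn fuel into heat. Fat around arteries can be of either kind, and mesenteric fat is mainly white.

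Median intensities of the 6 arrays ran from 62.8 to 72.6. Values below are log2(intensity + 1) after quantile normalization, and array values are always given in the order 30, 74 and 75 for controls and 72, 73 and 86 for knockouts. The targeted gene Itgb1 stood at 11.35 ± 0.40 (SD, n = 3) in controls and 10.61 ± 0.13 (SD, n = 3) in knockouts, a difference of -0.73 (SE 0.22, limma adjusted p = 0.129, exact permutation p = 0.1, the smallest that 3 against 3 allow). Knockout 86, whose title carries an F where the other 5 carry an M, had Xist at 11.83 and Eif2s3y at 2.03, against at most 6.09 and at least 8.63 elsewhere. Knockout 73 stood apart in immune cell genes: the B cell genes Cd79a and Ms4a1 stood at 7.03 and 6.63 there and at most at 4.56 and 4.84 elsewhere, and the macrophage gene Marco at 10.94 against at most 5.64, all chosen after their values were seen. The median difference of the members without each of these arrays is given below. For most roles, differences without knockout 86 are given as well. The smooth muscle markers of the labelled tissue were present, with Acta2, Myh11, Tagln and Cnn1 all above the filter.

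Signal of mature fat cells was plain in all 6 arrays, and it differed more among control mice than between the groups. Adiponectin (Adipoq), a hormone secreted by fat cells, had deposited intensities of 2479, 12104 and 7310 in controls and of 6419, 5997 and 3288 in knockouts. Among the 34 members tested, those above the filter level of 6.10, control 74 was the highest array for 27, and knockout 86 the lowest for 19 and control 30 for 9. Between the control arrays 74 and 30, a pair picked from these same values, the median member differed by 1.73 on the log2 scale. For 13 members control 74 was more than 4-fold above control 30. The median of all genes differed by 0.03, but quantile normalization holds that median near 0, so nothing is read from the contrast. In bulk RNA, fewer fat cells and less fat cell RNA per cell cannot be told apart.

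None of the 34 members passed the threshold between groups in the limma fit (adjusted p under 0.05 over 11378 genes), where 2.63% of all genes did. Differences pointed down in 32 of 34 members, with a median of -0.67, against 57.1% of all genes tested and a median of -0.05. At an unadjusted p under 0.05, 6 members (17.6%) were lower and 1 (2.94%) higher, beside 11.5% and 9.91% of all genes. In 5 members (14.7%) every knockout array lay below every control array and in 1 (2.94%) above, beside 15.1% and 12.9% of all genes. The share of members without overlap is thus close to or under that of all genes, although nearly all differences point one way. Members also varied more within a group: the median SD among controls was 0.936 for members and 0.215 for all genes tested, and among knockouts 0.592 and 0.170. Aqp7, Cidea and Ppargc1a passed the filter through the control arrays, their knockout means being below it, and they are 3 of the 5 without overlap, so nothing is read from that share.

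**Figure D1:**
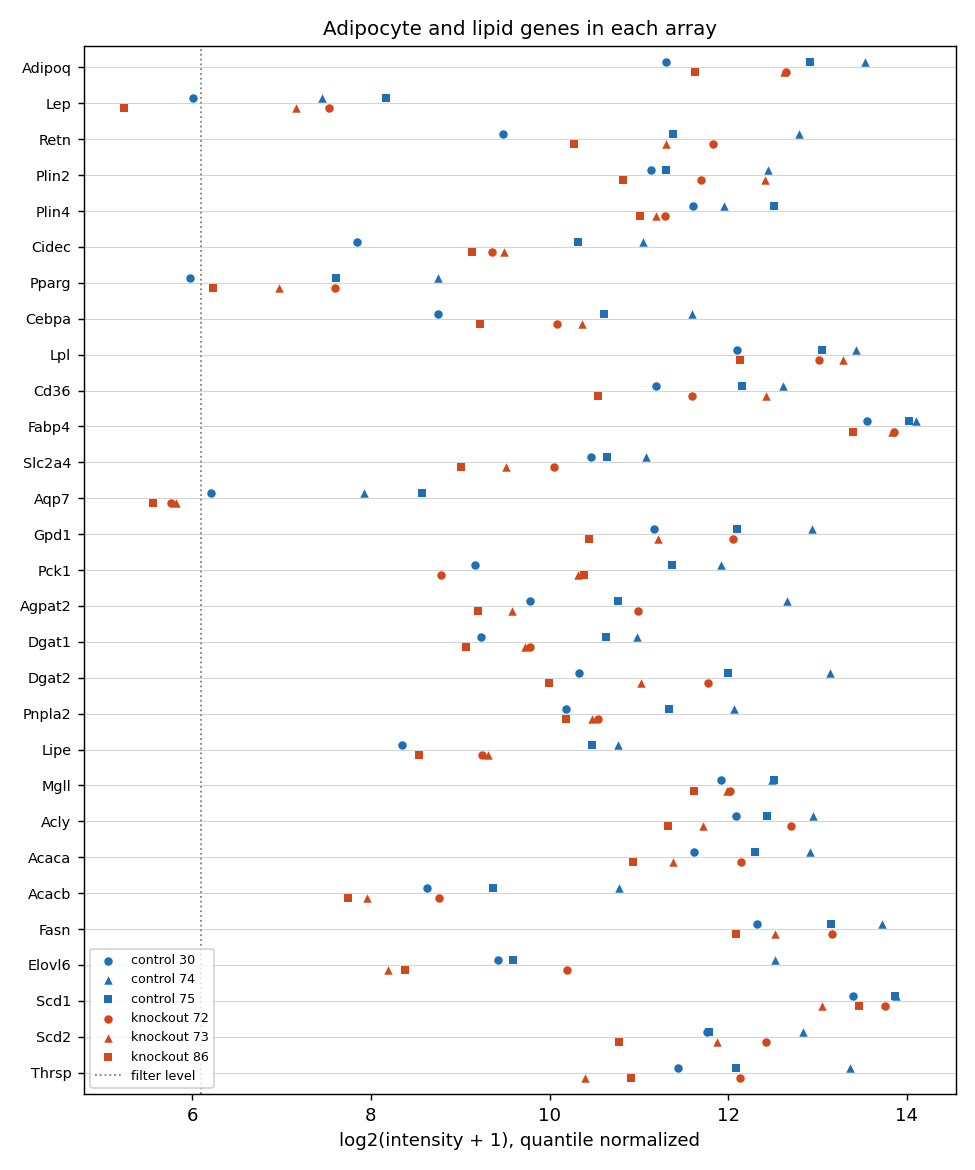
Level of 29 adipocyte and lipid genes, ordered by role, in each of the 6 arrays; the x axis is log2(intensity + 1) after quantile normalization, each point is 1 mouse and the dotted line is the filter level of 6.10. Control 74 (blue triangles) is at the right in most rows, and control 30 (blue circles) and knockout 86 (red squares) are at the left.

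The size of the downward shift rested on single mice. Without control 30 the median difference was -1.19, 33 of 34 members were lower and 1, Aqp7, passed the threshold, as 1.66% of all genes did. Aqp7 passed the filter through the control arrays, so nothing is read from that call. It was -0.34 without control 74, with 25 of 33 members lower, and -0.37 without knockout 86, with 26 of 34 lower. Without knockout 73 it was -0.80, with 33 of 34 lower.

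The adipokines, hormones that fat cells secrete, ranged over more than the group difference among the control mice. Adipoq stood at 11.31, 13.53 and 12.91 in controls and at 12.64, 12.62 and 11.63 in knockouts. All knockout values fall within the control range, and the difference was -0.29 (SE 0.58, adjusted p = 0.806). Resistin (Retn) stood at 9.48, 12.79 and 11.39 in controls and at 11.83, 11.31 and 10.27 in knockouts. Control 74 was thus 9.91-fold above control 30, while the group difference was -0.08 (SE 0.82, adjusted p = 0.965). Leptin (Lep), the satiety hormone whose level follows fat mass, stood at 6.01, 7.45 and 8.17 against 7.53, 7.16 and 5.23, a difference of -0.57 (adjusted p = 0.688). Its lowest values were again those of control 30 and knockout 86. Adipoq and Retn turned to higher in the knockout without control 74 (0.19 and 0.70) or without knockout 86 (0.04 and 0.36), and Lep without knockout 86 (0.13).

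Of the droplet coat proteins, Plin4 alone separated the groups. Plin4, a perilipin that coats nascent droplets, stood at 11.61, 11.95 and 12.52 in controls and at 11.29, 11.20 and 11.01 in knockouts. The groups did not overlap, and the difference of -0.86 (SE 0.24, 1.82-fold lower, adjusted p = 0.114) did not pass the threshold. Cidec, which fuses droplets into the single large one of white fat, stood at 7.85, 11.04 and 10.32 in controls. Its knockout values of 9.35, 9.50 and 9.13 lay inside that range, with an SD of 0.18 against 1.67 in controls, and the difference was -0.41 (SE 0.75, adjusted p = 0.785). Plin2, a perilipin found in most cells that take up lipid, stood at 11.13, 12.45 and 11.31 against 11.70, 12.41 and 10.82. The difference was 0.01 (SE 0.48, adjusted p = 0.99) and turned to -0.08 when arrays were centred on their medians.

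Both transcription factors of fat cell differentiation were highest in control 74 and lowest in control 30. Pparg, the nuclear receptor that drives this program, stood at 5.98, 8.75 and 7.61 in controls and at 7.60, 6.97 and 6.23 in knockouts, a difference of -0.51 (SE 0.69, adjusted p = 0.703). Cebpa, its partner, stood at 8.75, 11.60 and 10.61 against 10.09, 10.36 and 9.22, a difference of -0.43 (SE 0.70, adjusted p = 0.754). For both genes the knockout values lay inside the control range, and without control 74 the differences were 0.14 and 0.21. Without knockout 86 they were -0.16 and -0.10.

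**Figure D2:**
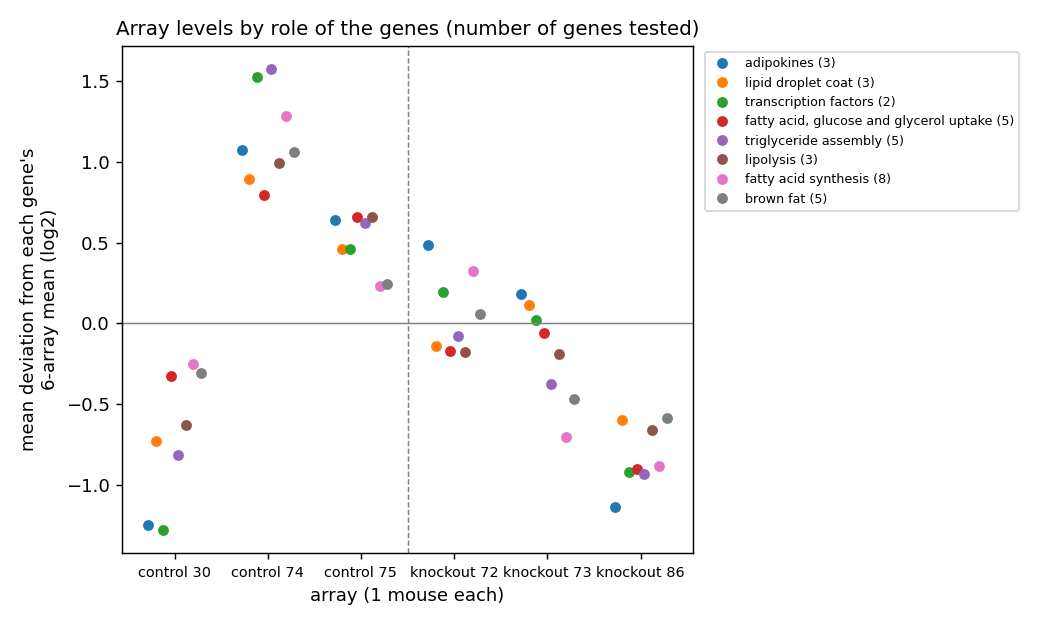
Mean deviation of the tested members from their own 6-array mean (y axis, log2), by array (x axis) and role (colour, number of genes in the key). All 8 roles lie above 0 in controls 74 and 75 and below 0 in control 30 and knockout 86.

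Genes of fuel uptake fell into a pair that separated the groups and 3 that did not. Slc2a4 encodes GLUT4, the insulin-responsive glucose transporter of fat and muscle. It stood at 10.46, 11.08 and 10.64 in controls and at 10.05, 9.51 and 9.01 in knockouts, with no overlap, a difference of -1.20 (SE 0.29, 2.30-fold lower, adjusted p = 0.0859). Its other probe set gave -1.05, also without overlap. Aqp7, the channel through which fat cells release glycerol, stood at 6.21, 7.92 and 8.58 in controls and at 5.76, 5.81 and 5.56 in knockouts, a difference of -1.86 (SE 0.55, 3.62-fold lower, adjusted p = 0.129). Its knockout values are all below the filter level, and its probe set is of the x type, whose probes can also bind related transcripts. The other Aqp7 probe set, below the filter, differed by -1.19 with overlapping groups. The Aqp7 difference was -2.54 without control 30 (adjusted p = 0.00815) and -1.35 without control 75 (adjusted p = 0.278), and leaving out any other array gave an adjusted p from 0.208 to 0.314. Without knockout 86, Slc2a4 differed by -0.95 (adjusted p = 0.205).

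The remaining uptake genes are shared with other cells of the vessel. Lpl, the lipase that frees fatty acids from lipoproteins, stood at 12.10, 13.42 and 13.05 against 13.01, 13.29 and 12.14, a difference of -0.05 (SE 0.41, adjusted p = 0.962). Cd36, a fatty acid receptor of fat cells, capillaries and macrophages, stood at 11.19, 12.61 and 12.16 against 11.59, 12.42 and 10.54 (-0.47, adjusted p = 0.647). Fabp4, a cytosolic fatty acid carrier, stood at 13.55, 14.10 and 14.02 against 13.86, 13.83 and 13.40 (-0.20, adjusted p = 0.611). Of 4 Fabp4 probe sets, 1 separated the groups, with a difference of -1.10. Without knockout 86, Lpl differed by 0.29, Cd36 by 0.024 and Fabp4 by -0.057. Of 11 macrophage genes 0 passed the threshold; their median difference was 1.42, and 0.83 without knockout 73, the highest array for 10 of the 11. Their mean was 7.56, 8.65 and 8.34 in controls and 8.99, 10.59 and 8.64 in knockouts, so that knockout 86 lay below control 74. Among knockouts, Lpl, Cd36 and Plin2 were also highest in knockout 73; the part of macrophages in these levels was not tested.

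Triglyceride assembly was lower in the knockout mean for 5 of 5 members, and the groups overlapped in each. The acyltransferase Dgat2, which makes triglyceride from newly made fatty acids, stood at 10.33, 13.14 and 12.00 against 11.77, 11.02 and 9.99 (-0.89, SE 0.74, adjusted p = 0.521). Control 74 exceeded control 30 7.02-fold for Dgat2, 7.32-fold for Agpat2, the acyltransferase lost in a form of lipodystrophy, and 6.77-fold for Pck1, which supplies glycerol phosphate. The group difference was -1.15 for Agpat2 (adjusted p = 0.431), while Pck1 differed by -0.99 (adjusted p = 0.489), Gpd1 by -0.83 (adjusted p = 0.412) and Dgat1 by -0.76 (adjusted p = 0.377). Pck1 was lowest in knockout 72, at 8.78, unlike most members. Without knockout 86 the median of the 5 was -0.53 in place of -0.89, with Dgat2 at -0.42 and Gpd1 at -0.43, and without control 74 it was -0.39, with Dgat2 at -0.23 and Agpat2 at -0.35.

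The 3 lipases of fat breakdown were also lower on average and overlapped. Lipe, the hormone-sensitive lipase, stood at 8.34, 10.77 and 10.47 in controls and at 9.25, 9.31 and 8.54 in knockouts, a difference of -0.83 (SE 0.62, adjusted p = 0.477). Pnpla2, which removes the first fatty acid, stood at 10.19, 12.07 and 11.34 against 10.55, 10.48 and 10.19 (-0.79, adjusted p = 0.344). Mgll, which removes the last, stood at 11.91, 12.49 and 12.51 against 12.02, 11.99 and 11.62 (-0.43, adjusted p = 0.283). In each of the 3, controls 74 and 75 lay above all knockouts and control 30 did not. Their median of -0.79 was -0.58 without knockout 86 and -0.35 without control 74.

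Fatty acid synthesis was lower in the knockout mean for 8 of 8 members, with a median of -0.68 and overlap in each. Acacb, the mitochondrial acetyl-CoA carboxylase that restrains fatty acid oxidation, had the smallest p of these. It stood at 8.63, 10.78 and 9.36 in controls and at 8.76, 7.96 and 7.74 in knockouts, a difference of -1.44 (SE 0.55, unadjusted p = 0.0343, adjusted p = 0.198). Elovl6, which lengthens palmitate, stood at 9.42, 12.52 and 9.59 against 10.20, 8.19 and 8.38 (-1.59, SE 0.92, adjusted p = 0.362). Control 74 alone sets the high control mean there, 8.60-fold above control 30. Thrsp, a lipogenic nuclear protein, stood at 11.43, 13.36 and 12.09 against 12.13, 10.39 and 10.91 (-1.15, adjusted p = 0.311). Acaca differed by -0.80, Acly by -0.57, Fasn by -0.47, Scd2 by -0.44 and Scd1 by -0.29, with adjusted p from 0.308 to 0.626. The other Scd1 probe set, dimmer but above the filter, differed by -1.27, with overlapping groups (limma by probe set, adjusted p = 0.393). In this role knockout 72 stood above its own group, with a mean deviation of 0.32 against -0.70 and -0.89 in knockouts 73 and 86. The median of the role was -0.41 without knockout 86, where Acly stood at -0.28, Fasn at -0.22 and Scd2 at 0.022, and also -0.41 without control 74, where Elovl6 stood at -0.58 and Fasn at -0.15.

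**Figure D3:**
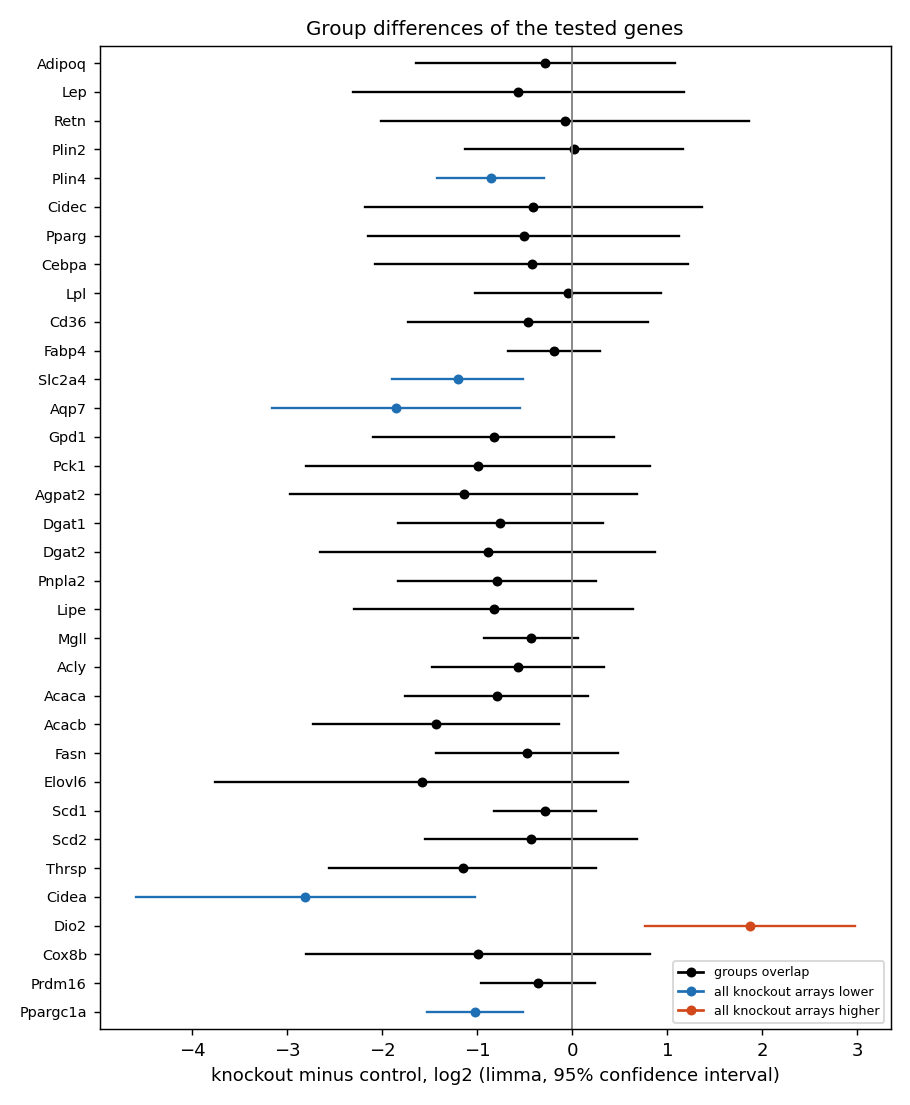
Knockout minus control difference of the 34 tested members (points, x axis, log2) with 95% confidence intervals from limma. Blue marks the 5 members whose knockout arrays all lie below the controls, red the 1 member, Dio2, whose knockout arrays all lie above; no adjusted p is under 0.05.

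The brown fat genes did not move as 1 group. Ucp1, the heat-producing carrier that defines brown fat, stood at 6.12, 8.45 and 5.01 in controls and at 3.67, 4.70 and 3.96 in knockouts. Its mean was below the filter, so it was not tested, and in 4 of 6 arrays it lay below the filter level. Cidea, the brown fat relative of Cidec, stood at 6.62, 9.65 and 7.28 in controls and at 5.62, 5.07 and 4.44 in knockouts. The groups did not overlap, with a difference of -2.81 (SE 0.75, 7.01-fold lower, adjusted p = 0.107), and the knockout mean was below the filter level. Without control 74 Cidea was below the filter and was not tested. Cox8b, a cytochrome oxidase subunit of brown fat and muscle, stood at 6.91, 10.07 and 8.20 against 7.63, 7.90 and 6.66 (-0.99, adjusted p = 0.488), and the difference was -0.15 without control 74. In Ucp1, Cidea and Cox8b control 74 was the highest array, above the mean of the other controls by 2.89, 2.70 and 2.52. Elovl3, which makes very long fatty acids in active brown fat, was below the filter and flat, from 5.63 to 5.84. Control 74 was the highest array for most members of other roles too, and the other brown fat genes were highest elsewhere, Prdm16 and Ppargc1a in control 30, Elovl3 in control 75 and Dio2 in knockout 72.

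Ppargc1a and Dio2 separated the groups in opposite directions in every probe set, although neither passed the threshold at its brightest probe set. Ppargc1a encodes the coactivator PGC-1alpha, which raises mitochondrial number in brown fat, muscle and other tissues. It stood at 7.19, 7.05 and 6.68 in controls and at 6.14, 5.58 and 6.13 in knockouts, a difference of -1.03 (SE 0.21, 2.04-fold lower, adjusted p = 0.0613). All 5 of its probe sets, including the 2 below the filter, separated the groups. With the mean of its probe sets the difference was -1.21 and passed the threshold (adjusted p = 0.00709, where 2.66% of all genes passed), and 2 of 3 probe sets passed when each was tested on its own (adjusted p = 0.00815 and 0.0245, where 1.65% of all probe sets passed). Its knockout mean was below the filter level. In both probe sets that passed, all knockout values were below that level, so they passed the filter through the control arrays. The one with adjusted p = 0.00815 in limma is also of the x type. Nothing is therefore read from these shares.

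Dio2, the deiodinase that makes active thyroid hormone in brown fat and in other cells, went the other way. It stood at 7.60, 9.12 and 9.10 in controls and at 11.03, 9.93 and 10.46 in knockouts, 3.65-fold higher (1.87, SE 0.47, adjusted p = 0.0926). Every knockout array lay above every control array in all 3 Dio2 probe sets. A dimmer one passed on its own in limma (1.85, adjusted p = 0.0476, where 1.65% of all probe sets passed). Its control values were all below the filter level (mean 5.64), so it passed the filter through the knockout arrays. With the mean of probe sets, which includes it, Dio2 rose by 1.86 (limma adjusted p = 0.0436, where 2.66% of all genes passed). Nothing is therefore read from these calls. Prdm16, a regulator of brown fat identity, stood at 10.35, 9.61 and 10.18 against 10.07, 9.38 and 9.61 (-0.36, adjusted p = 0.455), and its 4 probe sets split 2 to 2 in direction.

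**Figure D4:**
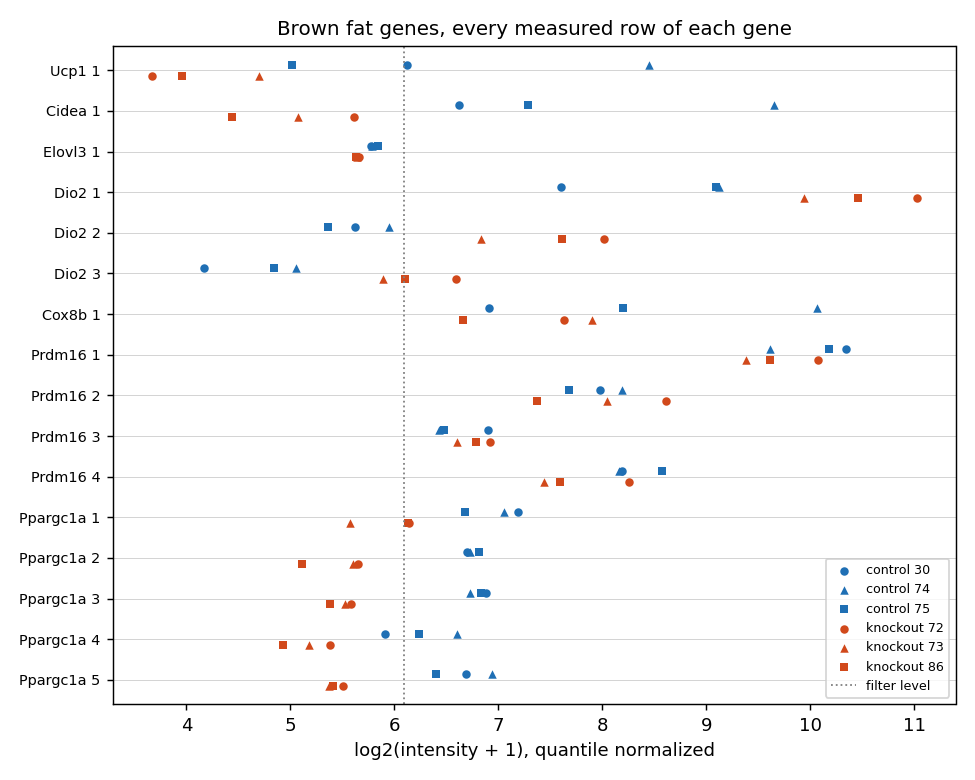
All 16 probe sets of the 7 brown fat genes, numbered within each gene, in each array (x axis, log2(intensity + 1) after quantile normalization; dotted line, filter level of 6.10). The 3 Dio2 rows have all knockout points to the right of the controls and the 5 Ppargc1a rows all to the left, while control 74 stands apart for Ucp1, Cidea and Cox8b.

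The promoter windows of this pair are shown because the 2 genes separated the groups in opposite directions in every probe set. On the downward side Ppargc1a was not alone. Slc2a4 did so in both its probe sets, and Plin4 and Cidea in their only one. Each runs 5′ to 3′ from 250 bases before to 50 bases after a RefSeq start site of GRCm38.p6. Capitals mark the cAMP response element TGACGTCA or its shorter core TGACG, and TATAA, each searched on both strands (the core lies within the full element).
Dio2, chr12:90738989-90739288, minus strand: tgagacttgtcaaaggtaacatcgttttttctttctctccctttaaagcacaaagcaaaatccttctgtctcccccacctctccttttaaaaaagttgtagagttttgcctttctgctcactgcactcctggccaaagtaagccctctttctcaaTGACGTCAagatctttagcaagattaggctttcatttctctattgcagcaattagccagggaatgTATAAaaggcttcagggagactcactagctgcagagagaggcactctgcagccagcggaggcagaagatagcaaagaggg
Ppargc1a, chr5:51567676-51567975, minus strand: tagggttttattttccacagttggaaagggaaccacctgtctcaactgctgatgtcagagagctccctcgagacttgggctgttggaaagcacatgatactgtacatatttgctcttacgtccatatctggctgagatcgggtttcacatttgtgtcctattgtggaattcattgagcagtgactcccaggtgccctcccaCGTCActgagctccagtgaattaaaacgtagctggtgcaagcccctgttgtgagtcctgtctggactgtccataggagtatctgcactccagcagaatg

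The Dio2 window holds the full element, starting 95 bases before the start site, which 1.79% of all 32851 windows hold, and a TATAA that 24.9% hold. Ppargc1a has the core alone, on the opposite strand, as 20.8% of windows have. Of 36 windows of 29 listed genes, 1 holds the full element and 5 the core. The element was added to the search after the values were seen. The PPAR response element AGGTCANAGGTCA was matched exactly in 0 of the 36 windows and in 0.0396% of all. A match is a run of letters and does not show a bound site.

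With the level of white fat markers held constant, 5 members passed the threshold. The mean of the 4 tested white markers (Adipoq, Lep, Retn and Cidec) was 8.66, 11.20 and 10.70 in controls and 10.34, 10.14 and 9.07 in knockouts, and it was added to the limma model as a covariate, an alternative chosen after seeing the data. Among the other 30 members, 28 had a positive slope on it, with a median of 0.60 against 0.02 for all genes. The slope was 0.53 (SE 0.18) for Dio2 and -0.12 (SE 0.12) for Ppargc1a. The group term passed the threshold for 4 members lower (13.3%, beside 1.63% of all genes) and 1 higher (3.33%, beside 3.04%). As 3 of the 4 passed the filter through the control arrays and the model leaves 3 residual degrees of freedom, nothing is read from these shares. These were Slc2a4 (-1.10, SE 0.22, adjusted p = 0.0467), Aqp7 (-1.63, SE 0.33, adjusted p = 0.0473), Cidea (-2.50, SE 0.47, adjusted p = 0.04), Ppargc1a (-1.07, SE 0.21, adjusted p = 0.0441) and Dio2 (2.05, SE 0.32, adjusted p = 0.0258). The difference moved from -0.51 to -0.18 for Pparg, from -0.43 to -0.09 for Cebpa and from -0.05 to 0.14 for Lpl, with adjusted p from 0.661 to 0.818.

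**Figure D5:**
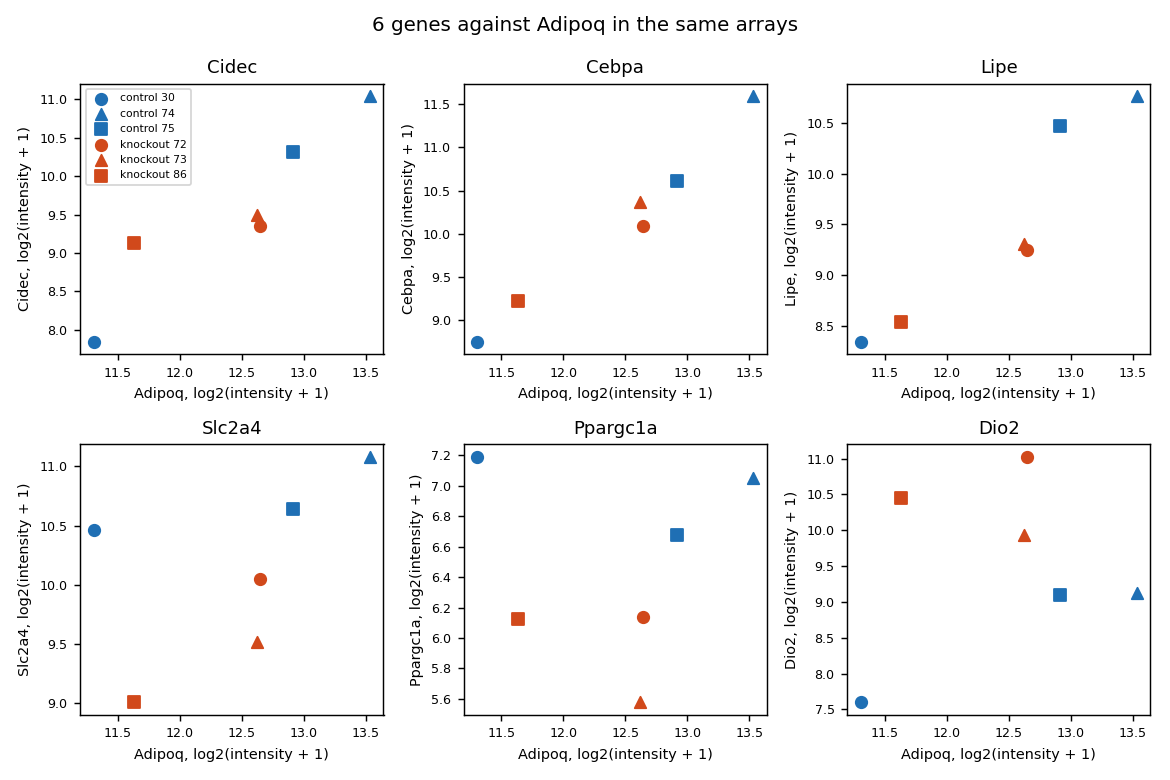
Level of 6 members (y axes) against Adipoq (x axes) in the same arrays, both as log2(intensity + 1); each point is 1 mouse. Cidec, Cebpa and Lipe rise with Adipoq across both groups, whereas for Slc2a4, Ppargc1a and Dio2 the knockout arrays (red) lie apart from the controls (blue) over the range of Adipoq.

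Other fat cell genes, from 3 lists written beside the members, were likewise highest on average in control 74. Further adipocyte genes were lowest in knockout 86, as were brown and beige fat genes (7.87, beside 7.88 in knockout 72). White fat genes had their lowest mean in control 30 (7.99, beside 8.01 in knockout 86). That array was lowest for only 1 of the 9 genes, Nnat, at 3.36 against at least 6.42 elsewhere, and knockout 86 for 4. Of 28 further adipocyte genes tested, 26 were lower on average, with a median of -0.58 that was -0.15 without control 74 and -0.37 without knockout 86, and their mean was 9.73, 11.08 and 10.29 in controls against 10.32, 9.83 and 9.49 in knockouts. Of the 28, 1 passed the threshold in limma, beside 2.63% of all genes. It was Sncg, the gamma-synuclein of fat cells and neurons, which rose. Its values were 8.80, 9.59 and 9.48 against 10.86, 10.98 and 11.01 (1.66, SE 0.22, adjusted p = 0.0159). The insulin receptor Insr (-0.60, adjusted p = 0.0965) separated the groups downward, while Plin5 (means of 7.87 and 6.86, adjusted p = 0.183) and the acetate enzyme Acss2 (-1.57, adjusted p = 0.195) overlapped. Of 14 other brown and beige fat genes, 1 rose and 1 fell past the threshold, beside 2.63% of all genes in either direction. The beige marker Tmem26 rose (1.71, SE 0.20, limma adjusted p = 0.0106). Its control values were all below the filter level (mean 5.50). It thus passed the filter through the knockout arrays, and nothing is read from its call. The acyl-CoA thioesterase Acot11 fell (-0.77, SE 0.13, limma adjusted p = 0.0355). These 3 calls depended on single arrays, though not their directions: with 1 array left out the adjusted p ranged from 0.0127 to 0.0818 for Sncg, from 0.00482 to 0.0733 for Tmem26 and from 0.0629 to 0.133 for Acot11, which passed in none of these fits. S100b stood at -0.60 and Acot2 at -1.08 (adjusted p = 0.0739 and 0.117). Of 9 genes of white fat, 0 passed in limma and 7 were lower, with Sfrp5 at -0.78, Npr3 at -1.15, Tcf21 at 0.25 and Hoxc8 at -0.55; Sfrp5 alone had an unadjusted p under 0.05 (0.0167).

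Smooth muscle genes were lower on average in the knockout for 9 of 9, with a median of -0.34 and no call. Without control 74 the median was -0.53 with 2 calls, where 2.46% of all genes were called. The mean of 9 smooth muscle genes was 12.96, 12.40 and 12.91 in controls, lowest in control 74, and 12.46, 12.15 and 12.36 in knockouts, with summed intensities from 61651 to 81895 and from 54536 to 64556. In 4 of these 9 genes every knockout array lay below every control array, beside 15.1% of all genes. They were Lmod1 (-1.20, adjusted p = 0.0561), Synpo2 (-0.75), Myh11 (-0.46) and Tagln (-0.33). Preadipocyte genes, those of the precursors of fat cells, had a median difference of 0.10 over 7 genes, 0 of them past the threshold; Cd24a stood at -1.09, Zfp423 at -0.73, Pdgfra at 0.75 and Pi16 at 0.45 (adjusted p from 0.0861 to 0.409). The share of fat, muscle and precursor cells in each RNA was not measured, and its part in the differences above was not tested.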

How the data were processed

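Total RNA of 6 mouse arteries was labelled with biotin and hybridised to 1 array each. The authors deposited linear intensities, a single value for each of 45037 probe sets; the sources used here do not say how probes were summarised and scaled. Per the platform annotation of 2016, 34945 probe sets have 1 symbol, 932 several and 9160 none; 34741 identifiers were found in a GRCm38.p6 gene table, which changed 0 symbols. The intensities were turned into log2(intensity + 1), quantile normalized, and filtered at the median of all probe sets' means, 6.10. The probe set with the highest mean stood for a gene, which gave 11378 genes, of which 299 passed (220 higher, 79 lower). Differences, knockout minus control, come from limma 3.58.1 (R 4.3.3), 2-sided, with Benjamini-Hochberg adjustment over all genes, and are understated for dim genes. The replicates are separate mice; 3 arrays per group limit the precision. The limma fit was tested on simulated arrays with known changes, whose spread was that of all genes and equal in both groups. The choice of probe set was tested on a toy table, and the other steps were not tested in this way.

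Members and lists were chosen with earlier results of these data known. The text names all members measured, Itgb1, sex-linked and smooth muscle genes, and up to 4 genes per other list by smallest p, with those past the threshold; defining markers of other tissues below the filter were named after their values were seen. Alternatives covered the filter, the probe set rule, the normalization, the pseudocount, the variance prior, array weights, the threshold and leaving out each array; the filter over named probe sets, the covariate and the leave-outs over gene lists and roles were added after seeing the data.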

Additional observations from a re-analysis of the deposited data

How the results depend on the processing

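Over 18 alternative settings, 24 of the 34 members tested kept their direction in every setting that tested them, and 10 turned in at least 1. The count of members higher past the threshold, 0, became 1 with the mean of all probe sets, by probe set, with array weights, with the white marker covariate, at an adjusted p under 0.10 and at an unadjusted p under 0.05. The count lower, 0, became 1 with the mean of all probe sets, 2 by probe set (both probe sets of Ppargc1a, so 1 member), 4 with array weights, 4 with the covariate, 2 at an adjusted p under 0.10 and 6 at an unadjusted p under 0.05, and ranged from 0 to 1 with 1 array left out. Of all genes, in either direction, 10.5% passed with array weights, 4.68% with the covariate and 2.66% with the mean of all probe sets. By probe set 1.65% passed, and with 1 array left out 0.413% to 2.46% of genes. At an unadjusted p under 0.05, 11.5% of all genes were lower and 9.91% higher. The share at an adjusted p under 0.10 was not computed, so nothing is read from that count. Itgb1 passed the threshold with array weights (-0.77, adjusted p = 0.0329) and with the covariate (-0.83, adjusted p = 0.0219). Leaving out 1 array moved the median difference between -1.19 and -0.34, and it was -0.31 with array weights.

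With 1 array left out, the lowest and highest differences were -0.93 and 0.19 for Adipoq, -0.92 and 0.024 for Cd36, -1.22 and 0.21 for Cebpa, -1.36 and 0.24 for Cidec, -1.17 and 0.13 for Lep, -0.43 and 0.29 for Lpl, -0.37 and 0.43 for Plin2, -1.25 and 0.14 for Pparg, -0.95 and 0.70 for Retn and -0.80 and 0.022 for Scd2. Directions also turned with array weights for Lpl (0.070), Retn (0.45) and Scd2 (0.22), with the covariate for Lpl (0.14) and Retn (0.32, itself part of the covariate), and with median centring for Plin2 (-0.082); the cause was not tested. Ppargc1a differed by -1.18 to -0.84 with 1 array left out (adjusted p from 0.0975 to 0.155) and Dio2 by 1.37 to 2.14 (adjusted p from 0.097 to 0.241).

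Over all genes, 299 passed in the reported fit, 174 with no filter, 166 with a filter at the 70th percentile, 1197 with array weights, 532 with the covariate and 47 to 279 with 1 array left out. With the filter median taken over named probe sets, 258 of 10654 genes passed, and Cidea and Ppargc1a fell below the filter. No paired analysis was possible because the groups share no animal numbers. Probe sets near the filter level, such as Ucp1, Cidea and Aqp7, limit what their differences show.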

Other observations

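Genes of capillary endothelium, the cells that carry fatty acids into fat and muscle, were lowest in knockout 86 for 8 of 10. Of these 10, 7 were lower on average (median -0.61) and 0 passed in limma. At an unadjusted p under 0.05, 2 were lower, beside 11.5% of all genes. Without knockout 86 the median was -0.19, with 5 of 10 lower. Without control 74 it was -0.31, with 9 lower and 1 past the threshold, where 2.46% of all genes passed. Gpihbp1, which anchors lipoprotein lipase to the capillary wall, stood at 9.07, 9.91 and 9.79 in controls and at 8.73, 9.68 and 7.76 in knockouts (-0.87, adjusted p = 0.343). Tcf15, which with Meox2 sets fatty acid transport in capillaries, stood at -0.85 (unadjusted p = 0.00667, adjusted p = 0.102), Rgcc at -0.66 (unadjusted p = 0.0444, adjusted p = 0.22) and Cd300lg at -1.11 (adjusted p = 0.309). Meox2 itself went the other way, at 0.40 (limma adjusted p = 0.495), and was 1 of 3 genes of the list that were higher.

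Of 12 mesothelial genes, 10 had a mean below the filter, among them Msln, Upk3b and Wt1, which define that layer, and Gpm6a (-0.92) and Cldn15 (-0.09) were above it. Of 11 lymph node genes on the array, 7 had a mean below the filter, the T cell gene Cd3e and the B cell genes Cd79a, Ms4a1, Cd22 and Cd79b among them. In knockout 73 these B cell genes stood above the filter level, at 7.03, 6.63, 7.64 and 6.52, against at most 4.56, 4.84, 6.24 and 5.33 in the other arrays. Those tested were Cd8a (0.45), Prox1 (0.36), Pdpn (0.58) and Lyve1 (0.36), with adjusted p from 0.347 to 0.688. Macrophage genes had a median difference of 1.42 over 11 genes, with 0 past the threshold. Mrc1 stood at 1.42, Fcgr1 at 2.14, Adgre1 at 1.88 and Csf1r at 1.58 (adjusted p in limma from 0.065 to 0.138). Fcgr1 passed the filter through the knockout arrays, its control mean of 5.25 being below the filter level. Summed intensities of the list ran from 3432 to 7157 in controls and from 7098 to 32873 in knockouts.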
